A study of Homo sapiens with 4 samples.

Results

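The genes described here are 10 genes of the Wnt/beta-catenin pathway. CTNNB1 encodes beta-catenin itself, and AXIN2, LGR5, NKD1, GLUL, TBX3, RNF43, ZNRF3, DKK1 and TCF7 are used to read the pathway's activity in liver. The 10 genes were picked out by gene symbol, under a rule that uses no measured value, but the set was chosen with earlier results of these data known. All 10 were found among the 61541 gene IDs of the count table. RNA was sequenced from MHCC97H, an established human hepatocellular carcinoma (HCC) cell line, in 2 control libraries (shCon) and 2 libraries of cells carrying a short hairpin RNA against UBXN1 (shUBXN1). UBXN1 encodes a ubiquitin-binding adaptor protein. All 4 libraries come from cells without any further treatment named in the labels. By the study's methods, hairpins were delivered in the lentiviral vector pLKO.1 and the control hairpin was named shRFP. Neither the hairpin used for these libraries nor whether the cells were a pool or a clone was stated for them. The labels do not say that the libraries came from separate cultures. The p-values therefore measure the spread between these libraries, shared in part across genes, and that spread may be technical.

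In the Wnt/beta-catenin pathway, cytoplasmic beta-catenin is held low by a destruction complex built on Axin and APC, which marks it for degradation. When a Wnt ligand binds a Frizzled receptor and its LRP5 or LRP6 co-receptor, the complex is inactivated, and beta-catenin enters the nucleus and activates genes together with TCF and LEF factors. Several of those genes encode inhibitors of the pathway itself, so that their RNA serves as a readout of pathway activity. In liver, the pathway is most active in hepatocytes around the central vein, where it maintains genes such as GLUL, and activating mutations of CTNNB1 are common in HCC.

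Promoter sequence is shown for DKK1, RNF43 and TCF7, the genes with a promoter in the RefSeq table used here that were more than 2-fold lower in shUBXN1. Each line gives the 250 bases before the first listed transcript start, 5′ to 3′ on the strand of the gene, in build GRCh38.p14. Capitals mark a match to CTTTGAT or CTTTGAA, the letters searched on both strands as the core bound by TCF and LEF factors. DKK1 lies on the plus strand (chr10:52314031-52314280), RNF43 on the minus strand (chr17:58417535-58417784) and TCF7 on the plus strand (chr5:134115363-134115612).

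DKK1: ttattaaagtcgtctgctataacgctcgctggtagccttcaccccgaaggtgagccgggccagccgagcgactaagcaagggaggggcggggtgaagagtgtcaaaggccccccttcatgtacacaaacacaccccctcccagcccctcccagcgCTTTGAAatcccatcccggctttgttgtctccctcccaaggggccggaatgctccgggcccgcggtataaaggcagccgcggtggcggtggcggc

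RNF43: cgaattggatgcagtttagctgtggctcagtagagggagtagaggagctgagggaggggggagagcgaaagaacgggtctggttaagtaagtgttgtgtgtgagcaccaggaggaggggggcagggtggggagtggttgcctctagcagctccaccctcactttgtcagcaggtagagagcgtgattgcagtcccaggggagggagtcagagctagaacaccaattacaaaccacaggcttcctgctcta

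TCF7: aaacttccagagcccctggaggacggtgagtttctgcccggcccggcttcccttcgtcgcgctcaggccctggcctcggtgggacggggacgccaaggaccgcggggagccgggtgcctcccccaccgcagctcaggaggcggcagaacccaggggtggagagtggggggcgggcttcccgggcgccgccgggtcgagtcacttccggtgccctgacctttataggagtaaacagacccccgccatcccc

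The search window ran on for 50 bases past each start. Of the 10 genes, 5 had a promoter in that table (CTNNB1, GLUL, RNF43, DKK1 and TCF7), with 8 windows among them, and only the DKK1 window held a match. It read CTTTGAA on the gene strand, from 95 to 89 bases before the start. Among all 35116 human promoter windows of this length, 2409 (6.86%) held at least 1 match, and windows without these letters say nothing about sites elsewhere.

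The libraries held 23373700 to 27380508 counts. UBXN1 was at 67.0 and 77.3 CPM (the count relative to the library's total, scaled between libraries by TMM) in shCon and at 16.8 and 18.5 CPM in shUBXN1, a level of 24.5% of control (log2 fold change −2.03 ± 0.0963 SE, adjusted p = 9.98e-10). Mitochondrially encoded RNA took 5.28% and 5.59% of counts in shCon and 7.43% and 8.27% in shUBXN1. Of 10 hepatocyte and HCC markers, 7 reached 1 TPM (the count per gene length, relative to the library) in every library and GPC3 was at 0. Their summed level was 5394 and 5444 TPM in shCon and 4637 and 5053 TPM in shUBXN1, and most of that sum was KRT8 and KRT18, of which KRT8 fell by 0.44 on the log2 scale (adjusted p = 0.00185) and KRT18 rose (log2 fold change 0.31, adjusted p = 0.0116). Of the liver-specific markers, ALB (−1.97, adjusted p = 5.49e-08), APOB, TTR and HNF4A fell, SERPINA1 rose (0.40, adjusted p = 0.0271), and AFP and APOA1 did not pass the test. Summed markers of other cells were 1955 to 1962 TPM in shCon and 2304 to 2311 TPM in shUBXN1 for 5 cholangiocyte genes (4 at 1 TPM or more in every library, with SPP1 making up most of the sum and KRT7 higher but KRT19 lower in shUBXN1), 24.5 to 25.1 and 12.6 to 13.6 TPM for 5 stellate or fibroblast genes (1 of 5), 15.2 and 31.9 to 32.1 TPM for 4 endothelial genes (2 of 4, with CDH5 and VWF under 1 TPM), and 99.4 to 103 and 83.5 to 93.0 TPM for 5 leukocyte genes (1 of 5, with CD3E at 0 and PTPRC under 1 TPM). Most of the stellate or fibroblast sum was LUM, which fell (log2 fold change −1.06, adjusted p = 1.28e-06). Of the genes of that list under 1 TPM, DCN fell (−3.16, adjusted p = 0.0025) and COL1A1 rose (3.11, adjusted p = 5.83e-05). The part of these shifts in the results that follow was not tested. In bulk RNA, fewer cells expressing a gene and less RNA per cell cannot be told apart.

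To see whether CTNNB1 and the pathway's readout genes changed with UBXN1 knockdown, every gene was compared between the groups with edgeR's quasi-likelihood test. With 2 residual degrees of freedom, the test takes much of each gene's spread from the other genes. The p-values were adjusted by the Benjamini-Hochberg method over the 16863 genes tested. All 10 genes were lower in shUBXN1 at an adjusted p under 0.05 and none was higher. LGR5 passed the filter on low counts only through shCon, so its place in that count was partly set by the filter; the other 9 were above the filter in both groups. Over all genes tested, 4751 (28.2%) were called lower and 4727 (28.0%) higher. The ranges of the groups overlapped for none of the 10 genes. They were also apart for genes without a call, such as LGR4 (adjusted p = 0.108), and the share over all genes was not counted. With 2 libraries against 2, an exact two-sided permutation test cannot go below p = 0.333, so ranges that are apart add little for the 10 genes. By the thresholds of the study's methods (2-fold or more, with p under 0.05 before adjustment), 6 of the genes were lower (LGR5, NKD1, DKK1, RNF43, AXIN2 and TCF7) and none was higher. The same call was made for 1027 (6.09%) of all genes in the lower direction and for 1997 (11.8%) in the higher. The median log2 fold change was −1.29 over the 10 genes and −1.14 over the 9 above the filter in both groups, against 0.016 over all genes tested. As the set was chosen with earlier results of these data known, its counts and medians are descriptions.

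**Figure D1:**
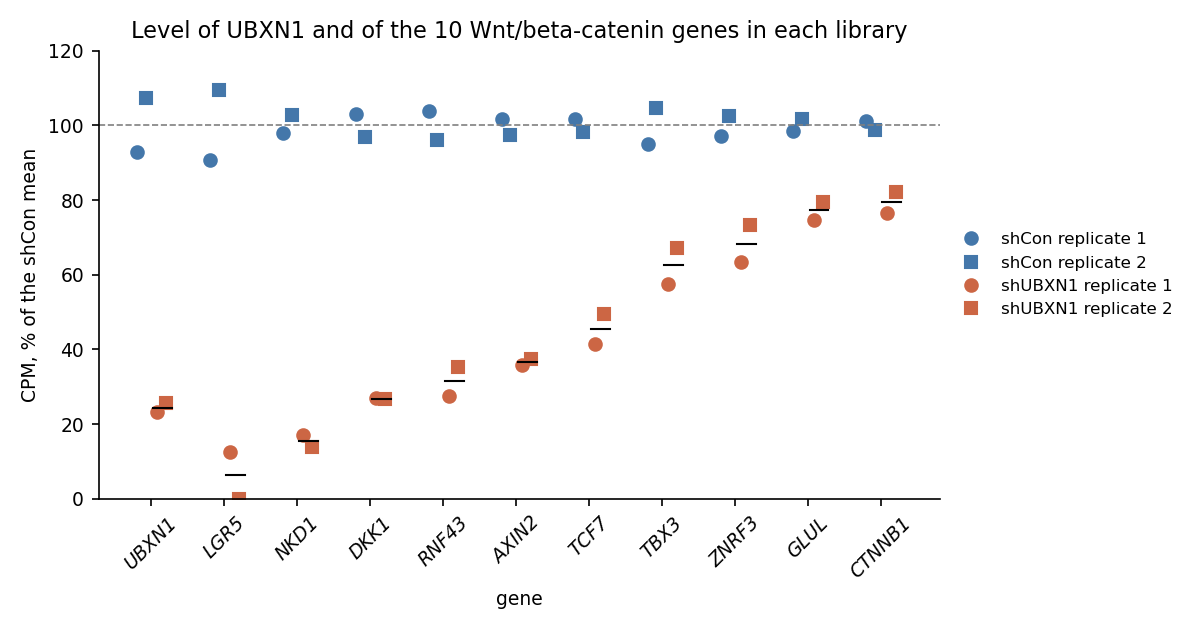
Level of UBXN1 and of the 10 Wnt/beta-catenin genes in each library, as a percentage of the mean CPM of the 2 shCon libraries (vertical axis, from 0). Circles and squares are replicates 1 and 2, blue for shCon and orange for shUBXN1, black bars are shUBXN1 means, and every shUBXN1 point lies below both shCon points of its gene.

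The genes differed widely in level and in how far they fell. Per length, in shCon, CTNNB1 RNA was the most abundant at 210 ± 8.27 TPM (SD, n = 2), followed by DKK1 at 183 ± 11.7, GLUL at 85.4 ± 0.121, AXIN2 at 52.1 ± 2.55, TCF7 at 27.5 ± 1.23 and RNF43 at 24.6 ± 1.85 TPM. TBX3 at 10.3 ± 0.489, ZNRF3 at 8.98 ± 0.174, NKD1 at 1.68 ± 0.0215 and LGR5 at 0.561 ± 0.063 TPM were lower. TCF7 and RNF43 were neighbours that differed by less than the sum of their SDs. In shUBXN1, DKK1 at 51.1 ± 2.79 TPM stood below GLUL at 68.9 ± 0.62 TPM, and the order was otherwise kept. There, RNF43 at 8.03 ± 0.976, TBX3 at 6.74 ± 0.377 and ZNRF3 at 6.39 ± 0.317 TPM were within the sum of the SDs of their neighbours. Levels compared between genes rest on 1 gene length per gene as deposited.

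**Figure D2:**
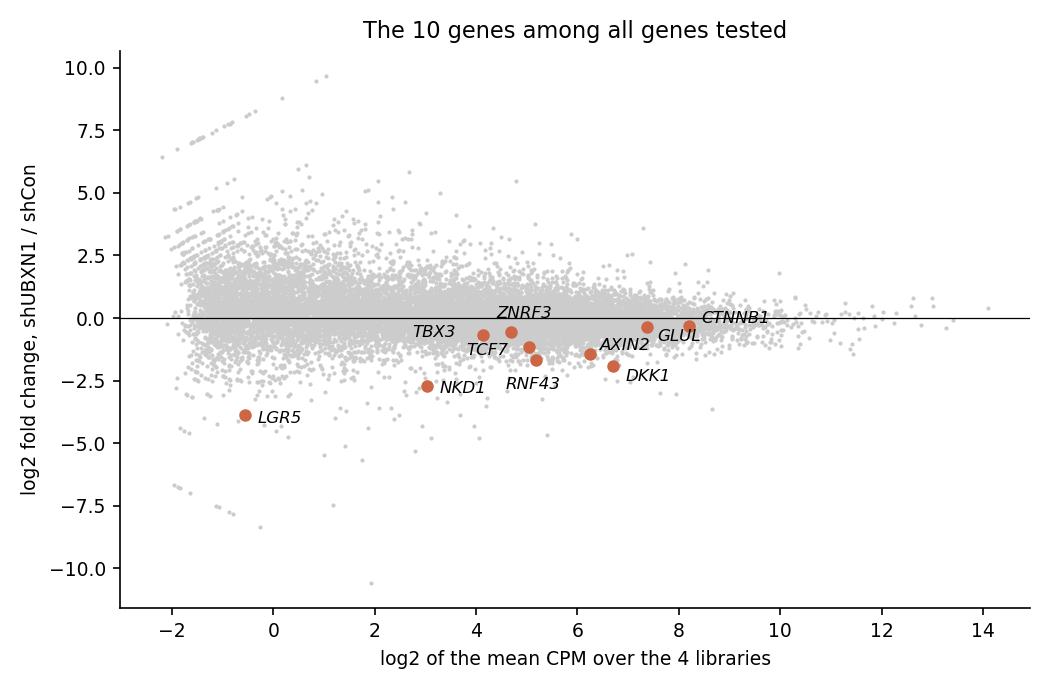
Log2 fold change of shUBXN1 over shCon (vertical axis) against the log2 of the mean CPM over the 4 libraries (horizontal axis) for the 16863 genes tested (grey) and the 10 Wnt/beta-catenin genes (orange). All 10 lie below 0, from CTNNB1 at −0.33 to LGR5, whose fitted value rests on 4 and 0 counts in shUBXN1.

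Beta-catenin and its DNA-binding partners were lower in part. CTNNB1 (chr3:41194741-41260096, plus strand) encodes beta-catenin, whose activity is set mainly through the stability of the protein, which these libraries do not measure. Its level was 331 and 323 CPM in shCon and 250 and 269 CPM in shUBXN1. The groups were apart, but the fall was the smallest of the 10, to 79.5% of control (log2 fold change −0.33 ± 0.0753 SE, adjusted p = 0.00181), and 28.3% of all genes tested had a lower fold change.

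TCF7 (chr5:134114681-134151865, plus strand) encodes TCF1, a factor that binds DNA for beta-catenin and is also a target of the pathway. It stood at 46.4 and 44.8 CPM in shCon and at 18.9 and 22.5 CPM in shUBXN1. Both shUBXN1 libraries were below both controls, at 45.4% of control (log2 fold change −1.14 ± 0.0975 SE, adjusted p = 2.47e-07). Its relatives moved unequally. TCF7L2, the main TCF factor of many epithelia, fell by 0.71 on the log2 scale (adjusted p = 1.77e-05), whereas TCF7L1, which acts largely as a repressor, rose (log2 fold change 0.93 ± 0.149 SE, adjusted p = 0.000103). TCF7L1 was at 4.02 and 4.03 TPM in shCon and at 8.36 and 7.66 TPM in shUBXN1. LEF1, with 3 and 5 control counts and 0 and 2 knockdown counts, was not tested. Of the summed TPM of the 4 factors, TCF7 made up 54.7% and 54.0% in shCon and 38.0% and 40.3% in shUBXN1, while TCF7L1 went from 7.74% and 8.17% to 25.8% and 22.7%. TCF7L2 held 36.2% to 37.6% in all 4 libraries. With 2 libraries against 2, an exact two-sided permutation test cannot go below p = 0.333, so these and the following family shares are descriptions.

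The feedback inhibitors that act inside the cell fell by more than 2-fold. AXIN2 (chr17:65528563-65561648, minus strand) encodes a scaffold of the destruction complex and is the most widely used readout of the pathway. Its level was 113 and 108 CPM in shCon and 39.7 and 41.6 CPM in shUBXN1. The spread within each group was small beside the gap, and AXIN2 stood at 36.8% of control (log2 fold change −1.44 ± 0.076 SE, adjusted p = 2.49e-09). AXIN1, the constitutive scaffold, fell by 0.42 on the log2 scale (adjusted p = 0.000196). In shCon both Axins were at like levels per length, with 53.9 and 50.3 TPM for AXIN2 and 56.3 and 57.1 TPM for AXIN1. In shUBXN1 they were at 20.3 and 19.7 TPM and at 45.7 and 42.7 TPM, so the share of AXIN2 in the pair went from 48.9% and 46.8% to 30.7% and 31.5%.

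NKD1 (chr16:50548396-50649249, plus strand) encodes an inhibitor that binds Dishevelled, the protein that relays the signal from the receptors. With 371 and 343 counts in shCon and 60 and 46 in shUBXN1, it was at 13.9 and 14.6 CPM and at 2.42 and 1.96 CPM. This was the deepest fall among the 9 genes above the filter in both groups, to 15.5% of control (log2 fold change −2.69 ± 0.178 SE, adjusted p = 2.06e-08), and only 0.463% of the genes tested had a lower fold change. Its paralogue NKD2 rose from 1.64 and 1.62 TPM to 7.07 and 4.65 TPM (log2 fold change 1.77, adjusted p = 4.43e-05). The share of NKD1 in the pair's TPM was 50.3% and 51.1% in shCon and 4.18% and 4.75% in shUBXN1. The summed TPM was higher in shUBXN1, at 7.37 and 4.88 TPM against 3.31 TPM in each control library. This share and this sum rest on the deposited lengths, 17039 bases for NKD1 and 2182 for NKD2. In CPM, which is not divided by length, NKD2 went from 1.76 and 1.79 to 7.1 and 5.03. That rise was smaller than the fall of NKD1, so the summed CPM was lower in shUBXN1.

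**Figure D3:**
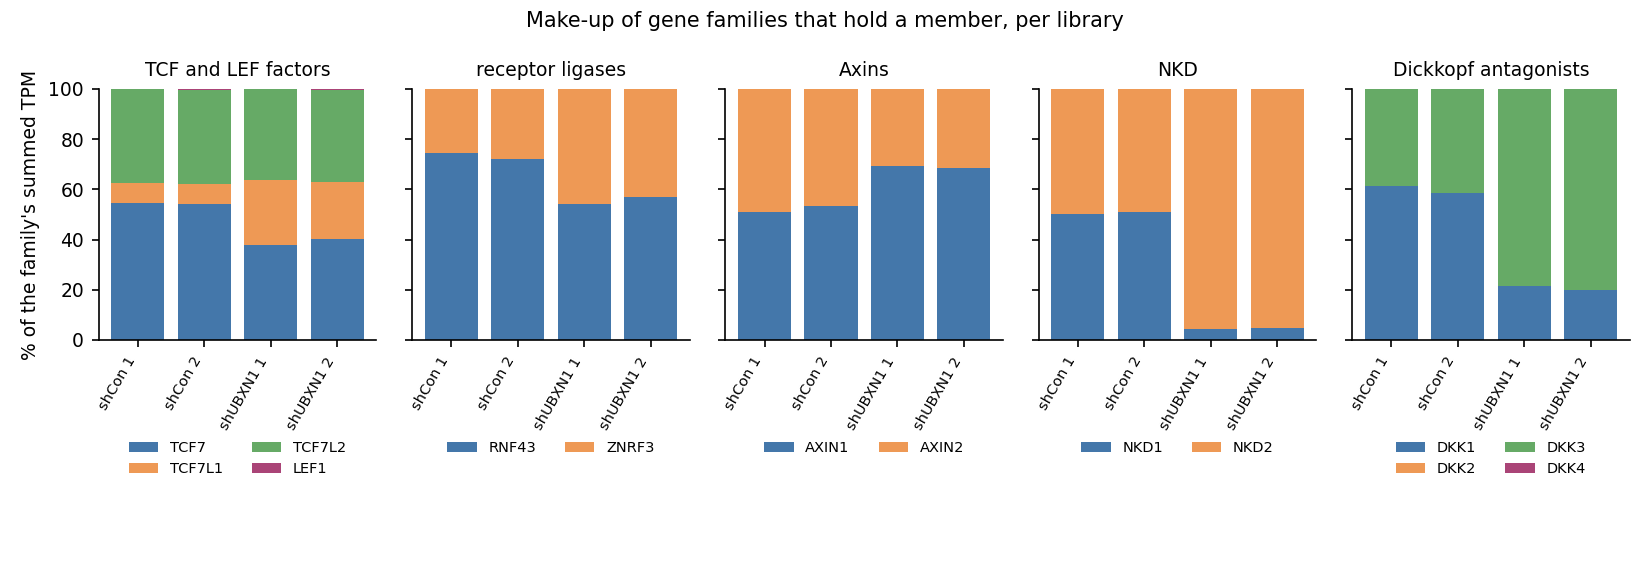
Share of each gene in the summed TPM of its family (vertical axis, percent) in each library (horizontal axis) for the TCF and LEF factors, the receptor ligases, the Axins, the NKD pair and the Dickkopf antagonists. The shares of TCF7, RNF43, AXIN2, NKD1 and DKK1 fell below the shCon range in each shUBXN1 library.

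At the cell surface, RNF43 and ZNRF3 encode ubiquitin ligases that remove Frizzled receptors, and LGR5 encodes a receptor for R-spondins, secreted proteins that block those ligases. RNF43 (chr17:58353676-58417595, minus strand) was at 57.5 and 53.3 CPM in shCon and at 15.3 and 19.6 CPM in shUBXN1. It fell to 31.4% of control (log2 fold change −1.67 ± 0.108 SE, adjusted p = 1.78e-08), with the higher of the shUBXN1 libraries still far below the lower control. Its exons are shared over 68.4% of their bases with a second gene model on the same strand, ENSG00000285897, which had 367.36 and 355.03 counts in shCon and 153.82 and 118.94 in shUBXN1. With the counts of both models added, the log2 fold change was −1.60 (adjusted p = 3.66e-09).

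ZNRF3 (chr22:28883572-29057488, plus strand) was at 29.9 and 31.6 CPM in shCon and at 19.5 and 22.6 CPM in shUBXN1, which is 68.5% of control (log2 fold change −0.55 ± 0.101 SE, adjusted p = 0.000363). The 2 groups did not overlap, though the gap was narrower than for RNF43. RNF43 made up 74.5% and 71.9% of the ligase pair in shCon and 54.3% and 56.9% in shUBXN1. The summed level of the pair was 34.8 and 32.4 TPM in shCon and 13.5 and 15.3 TPM in shUBXN1.

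LGR5 (chr12:71439798-71586310, plus strand), a stem cell marker in several epithelia, was near the limit of detection. It had 31 and 33 counts in the control libraries and 4 and 0 in the knockdown libraries. The control libraries held nearly all of its reads, and 1 knockdown library held none. Over the summed counts, 4 against 64, the level was 15.4-fold lower, with an exact 95% interval of 5.72 to 58.1 that covers counting error only. The fitted log2 fold change of −3.87 ± 0.74 SE (adjusted p = 0.000474) depends on how the fit treats a count of 0. It was −7.98 without shUBXN1 replicate 1, −2.96 without shUBXN1 replicate 2 and −0.59 on the log2(TPM + 1) scale. LGR4, the R-spondin receptor that supplied 98.2% or more of the LGR RNA in every library, was at 37.7 and 34.6 TPM in shCon and at 33.7 and 34.1 TPM in shUBXN1, a difference that did not pass the test (log2 fold change −0.15 ± 0.0765 SE, adjusted p = 0.108). None of the 4 R-spondin genes had more than 6 counts in any library.

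DKK1 (chr10:52314281-52318042, plus strand), whose promoter is shown above, encodes a secreted antagonist that binds LRP5 and LRP6. It was at 169 and 159 CPM in shCon and at 44.1 and 44 CPM in shUBXN1. The knockdown libraries were nearly equal, at 26.8% of control (log2 fold change −1.90 ± 0.0762 SE, adjusted p = 2.09e-10). DKK3, a family member without a settled role in this pathway, rose (log2 fold change 0.64, adjusted p = 7.61e-06). DKK1 made up 61.3% and 58.7% of the summed Dickkopf TPM in shCon and 21.4% and 19.7% in shUBXN1, and DKK2 and DKK4 had no counts. Among the secreted Frizzled-related antagonists, SFRP1 and SFRP2 were at 0, FRZB and SFRP5 were under 1 TPM, and SFRP4 was at 0.869 to 1.47 TPM with groups that overlapped (log2 fold change 0.06, adjusted p = 0.911).

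**Figure D4:**
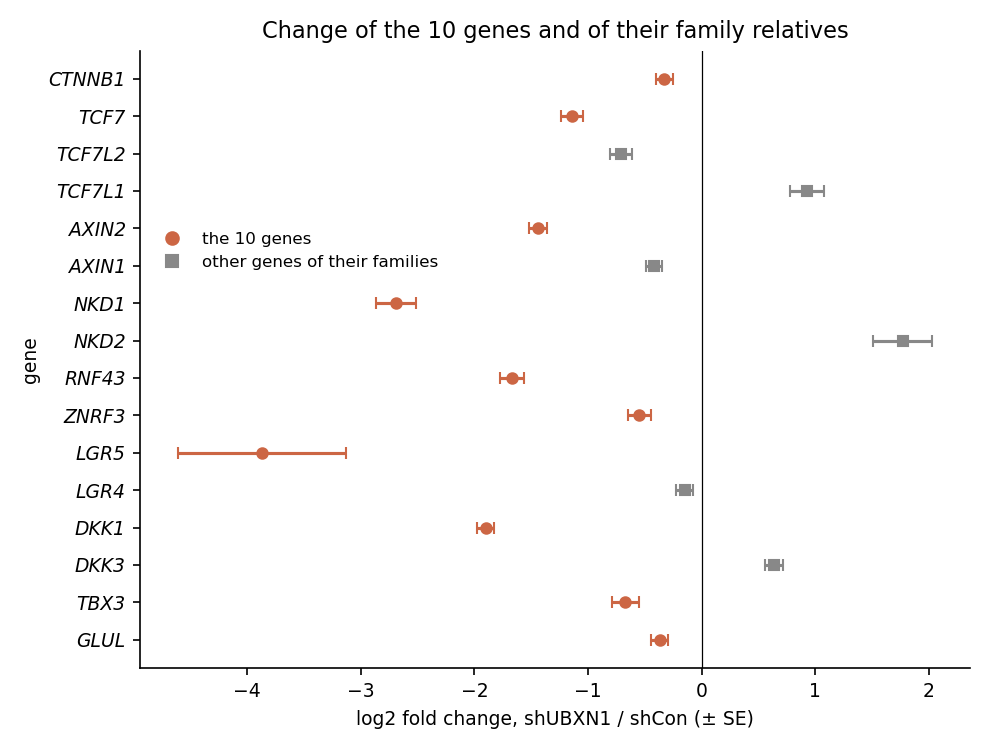
Log2 fold change of shUBXN1 over shCon (horizontal axis, bars are ± 1 SE) for the 10 Wnt/beta-catenin genes (orange circles) and for other genes of their families (grey squares). TCF7L1, NKD2 and DKK3 lie above 0, while TCF7L2, AXIN1 and LGR4 lie below it and nearer to 0 than TCF7, AXIN2 and LGR5.

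The 2 remaining genes mark pericentral hepatocytes. TBX3 (chr12:114670255-114684175, minus strand) encodes a T-box transcription factor and is a beta-catenin target in liver tumours. It was at 20.6 and 22.7 CPM in shCon and at 12.5 and 14.6 CPM in shUBXN1, which is 62.8% of control (log2 fold change −0.67 ± 0.118 SE, adjusted p = 0.00023). The spread within each group was equal, and the ranges were apart. GLUL (chr1:182378098-182392206, minus strand) encodes glutamine synthetase, the standard histological marker of beta-catenin activity in HCC. Its level was 183 and 189 CPM in shCon and 139 and 148 CPM in shUBXN1. The fall to 77.5% of control (log2 fold change −0.37 ± 0.0734 SE, adjusted p = 0.000656) was close in size to that of CTNNB1, and 26.3% of all genes tested had a lower fold change.

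The strand used in counting was not stated, so a gene on the opposite strand can share reads. The exon overlap with genes on the opposite strand was 10.2% of bases for DKK1, 5.5% for RNF43 and at most 4.0% for LGR5, TBX3, TCF7 and NKD1. The partners with reads to test, PRKG1-AS1 (log2 fold change 0.00908, adjusted p = 0.972), TSPOAP1-AS1 (−0.202, adjusted p = 0.673) and SKP1 (0.0903, adjusted p = 0.346), did not pass it. AXIN2 shares 25.3% of its exon bases with ENSG00000266076 on its own strand, which had at most 6.87 counts in any library.

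Outside these 10 genes, listed genes of the pathway were called in both directions. Lists of its other parts were written from general knowledge, with earlier results of these data known. They held 133 further genes, of which 93 were tested. Of these, 34 were higher, 33 were lower and 26 did not pass the adjusted p, with a median log2 fold change of 0.07. Over all genes tested, 28.0% were called higher and 28.2% lower, and the counts of each list that follows are to be read beside these shares. Of the 34 that were higher, 9 were above the count filter only in shUBXN1, and of the 33 that were lower, 1 was above it only in shCon.

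Among 21 genes of Wnt ligands and their secretion, 10 were tested, and 6 were higher and 1 lower (median log2 fold change 0.79), where 28.0% of all genes tested were called higher. Of the 6 that were higher, WNT9A and WNT11 were above the count filter only in shUBXN1, so this count and this median were partly set by the filter. WNT7B rose from 13.3 and 15.5 CPM to 55.5 and 57.4 CPM (log2 fold change 1.97, adjusted p = 1.28e-09). WNT9A, with 3 and 1 counts in shCon and 56 and 41 in shUBXN1 (adjusted p = 1.75e-05), and WNT11, with 1 and 0 counts against 16 and 27 (adjusted p = 0.000244), were near absent in the control. The one ligand that fell was WNT5A, which acts mostly outside the beta-catenin branch (log2 fold change −0.49, adjusted p = 0.000115). WLS, which carries Wnt proteins to the surface, was at 36.9 to 37.6 CPM in shCon and 34.3 to 38.3 CPM in shUBXN1, with groups that overlapped.

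Of 16 receptor genes, 13 were tested, and 5 were higher and 6 lower (median −0.05). LRP5, a co-receptor, fell from 312 and 317 CPM to 151 and 152 CPM (log2 fold change −1.05, adjusted p = 3.22e-08), and its partner LRP6 fell by 0.34 on the log2 scale (adjusted p = 0.00156). ROR1, a receptor for WNT5A, fell by 1.08 on the log2 scale (adjusted p = 3.21e-06). Of the more abundant Frizzled genes, FZD5 fell from 56.1 and 61.8 CPM to 32.3 and 35.2 CPM (log2 fold change −0.80, adjusted p = 2.15e-06), and FZD7 and FZD6 fell by 0.41 and 0.34 on the log2 scale (adjusted p = 0.00366 and 0.00317). The rarer FZD2 rose (log2 fold change 2.05, adjusted p = 3.55e-05) from 26 and 36 counts to 136 and 113. FZD3 and FZD4, above the count filter in both groups, rose by 0.45 and 0.52 on the log2 scale (adjusted p = 0.0256 and 0.0136). FZD8, with 11 and 17 counts against 32 and 35 (adjusted p = 0.0276), and FZD9, with 3 and 0 against 16 and 14 (adjusted p = 0.00402), were above the count filter only in shUBXN1, and these calls were lost in 5 of 14 and in 1 of 13 other settings of the analysis.

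Among the 17 other secreted and membrane antagonists, 7 were tested, and 3 were higher and 2 lower (median 0.17). NOTUM, an enzyme that inactivates Wnt ligands and is itself a target of the pathway, had 54 and 56 counts in shCon and 13 and 15 in shUBXN1 (log2 fold change −1.91, adjusted p = 0.000956). SOST, which binds LRP5 and LRP6, had 59 and 50 counts in shCon and 7 and 16 in shUBXN1 (adjusted p = 0.000985), and was above the count filter only in shCon. KREMEN1 and KREMEN2, receptors for DKK1, rose, KREMEN1 from 8.13 and 8.25 CPM to 16.2 and 17.4 CPM (log2 fold change 1.03, adjusted p = 8.83e-06) and KREMEN2 from 6 and 7.34 counts to 56.48 and 36 (adjusted p = 0.000224). KREMEN2 was above the count filter only in shUBXN1.

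The destruction complex and its regulators were measured almost completely, with 22 of 23 further genes tested, of which 7 were higher, 6 lower and 9 without a call (median 0.03). APC (log2 fold change 0.07, adjusted p = 0.61) and GSK3B (0.00, adjusted p = 0.981), core members of the complex, had overlapping groups. GSK3A rose (log2 fold change 0.49, adjusted p = 8.81e-05), and so did TNKS and TNKS2, the tankyrases that mark Axin for degradation (0.44 and 0.61, adjusted p = 0.000282 and 1.96e-05). DACT3, which binds Dishevelled, had 3 and 6 counts in shCon and 67.54 and 58 in shUBXN1 (adjusted p = 1.36e-05), whereas its paralogue DACT2 fell by 0.96 on the log2 scale (adjusted p = 0.00496). DACT3 was above the count filter only in shUBXN1. The Dishevelled genes DVL3 and DVL2 fell by 0.42 and 0.22 (adjusted p = 0.000303 and 0.0219), and the kinase gene CSNK1E by 0.61 (adjusted p = 5.55e-05). The Dishevelled gene DVL1 did not pass the test (log2 fold change 0.10, adjusted p = 0.3).

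Of 22 further genes of the nuclear complex, 19 were tested, and 6 were higher and 8 lower (median −0.13). BCL9, a co-activator of beta-catenin, fell from 69.4 and 69.6 CPM to 37.1 and 32.3 CPM (adjusted p = 2.18e-07). The co-repressors TLE2 and TLE4 rose, TLE2 from 1 and 2 counts to 58 and 32 (adjusted p = 2.49e-05) and TLE4 by a log2 fold change of 1.40 (adjusted p = 0.0102), a call lost in 2 of 14 other settings. TLE2 was above the count filter only in shUBXN1.

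Of 17 other listed targets of many tissues, 11 were tested, and 7 were lower and 2 higher (median −0.42), where 28.2% of all genes tested were called lower. Besides NOTUM, MYC, a growth-promoting transcription factor, fell from 216 and 219 CPM to 95.1 and 117 CPM (log2 fold change −1.04, adjusted p = 2.99e-07). BMP4, SOX4, JAG1 and CD44 fell by 0.93, 0.69, 0.53 and 0.42 on the log2 scale (adjusted p = 0.000178, 2.63e-06, 4.5e-05 and 0.000319), and the cyclin gene CCND1 by 0.20 (adjusted p = 0.0384). SP5, a transcription factor gene used as a pathway readout, went the other way, with 1 count in each control library and 25 and 18 in shUBXN1 (adjusted p = 0.000224), and EPHB2 rose (log2 fold change 0.55, adjusted p = 0.000808). SP5 was above the count filter only in shUBXN1.

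The other pericentral genes of hepatocytes gave no uniform picture. Of 12 listed, 8 were tested, and 4 were lower and 1 higher (median −0.31). AHR, the dioxin receptor, fell from 179 and 170 CPM to 88.3 and 88.4 CPM (log2 fold change −0.98, adjusted p = 6.47e-08), and GULP1 and SLC13A3 fell by 0.55 and 0.54 on the log2 scale (adjusted p = 1.57e-05 and 0.000766). The glutamate transporter gene SLC1A2 had 67 and 35 counts in shCon and 26 and 13 in shUBXN1 (log2 fold change −1.31, adjusted p = 0.0189), and its call was lost in 5 of 14 other settings. CYP2E1, a cytochrome P450 and a pericentral marker like GLUL, rose from 5 counts in each control library to 170.59 and 170.36 (log2 fold change 5.12, adjusted p = 2.08e-08). As it was above the count filter only in shUBXN1, it could be called in the higher direction alone. CYP1A2 and CYP7A1 had at most 1 count in any library.

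Of 12 periportal genes, which mark hepatocytes at the other end of the lobule, 4 were tested, with 2 higher and 2 lower. ASS1, an enzyme of the urea cycle, rose from 12.6 and 12.1 CPM to 55.8 and 58.3 CPM (log2 fold change 2.21, adjusted p = 2.46e-10), HAL, which degrades histidine, rose (1.32, adjusted p = 0.0109, lost in 2 of 14 other settings), the arginine transporter gene SLC7A2 fell by 2.80 on the log2 scale (adjusted p = 4.19e-08), and ASL, which follows ASS1 in the cycle, fell by 0.92 (adjusted p = 8.06e-07). Of 14 genes of the planar cell polarity and calcium branch, which does not use beta-catenin, 11 were tested, and 5 were higher and 4 lower (median 0.17). DAAM1, which links Dishevelled to actin, rose (log2 fold change 1.01, adjusted p = 1.33e-05), and NFATC1, a calcium-regulated factor, rose from a level under the filter in shCon (adjusted p = 0.00422, lost in 2 of 13 other settings). The more abundant NFATC2 fell from 32.9 and 32.3 CPM to 21.5 and 19.8 CPM (log2 fold change −0.66, adjusted p = 3.89e-05), and CELSR1 and VANGL1, polarity genes of the membrane, fell by 0.45 and 0.29 on the log2 scale (adjusted p = 0.000184 and 0.00644). CELSR2, CELSR3 and PRICKLE2 of the same list rose (log2 fold change 0.33, 0.48 and 0.48, adjusted p = 0.0335, 0.0029 and 0.00222).

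**Figure D5:**
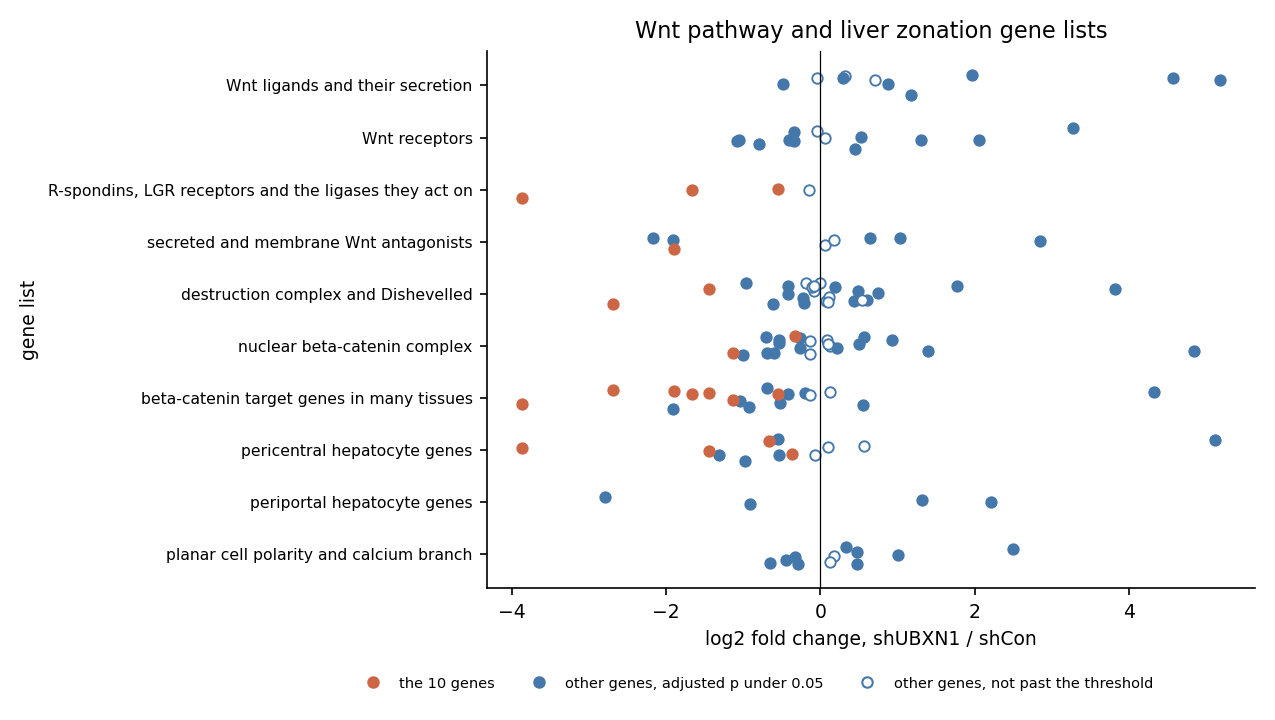
Log2 fold change of shUBXN1 over shCon (horizontal axis) for each tested gene of 10 gene lists (rows, with points spread vertically only for legibility). Orange points are the 10 Wnt/beta-catenin genes, which all lie below 0, and blue points are other genes, filled where the adjusted p was under 0.05, which lie on both sides of 0 in all lists with more than 1 such gene.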

How the data were processed

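RNA-seq of MHCC97H cells was used, with 2 shCon and 2 shUBXN1 libraries grouped by their labels. The authors deposited expected counts per gene, given to 2 decimals and not normalized, with 1 length per gene. The submitters' processing notes name HISAT2 2.0.4, StringTie 1.3.0 and GRCh37, whereas the paper's methods name Hisat2, GRCh38, TPM and limma. The counting tool, its strand setting and the annotation release are not given in the sources used here. The labels name a VAHTS mRNA-seq V2 kit and the methods a TruSeq kit.

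Expected counts were rounded, filtered with filterByExpr (minimum count 10, or 0.419 CPM in 2 libraries), scaled with TMM and tested in edgeR 4.0.16 under R 4.3.3 (glmQLFit and glmQLFTest, no block), after a test on simulated counts. SEs are the log2 fold change over the square root of F, and percentages of control are the fitted fold changes. The biological coefficient of variation was 0.0711. Replicates differed beyond counting error (chi-square per gene 3.83 in shCon and 8.41 in shUBXN1). TPM was computed from the counts and lengths. Of the gene IDs, 99.7% matched a symbol. Gene positions are those of GENCODE v44 on GRCh38, and promoters those of RefSeq on GRCh38.p14.

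The 10 genes and the lists were chosen with earlier results of these data known. From each list the text names at most 3 genes per direction past an adjusted p of 0.05 and a 2-fold change, all members of the families described and, chosen after their values were seen, others of known role. Alternatives were DESeq2 1.42.0, limma 3.58.1 (voom, and log2(TPM + 1)), total count scaling, other filters, a GC correction, a replicate block, leaving out each library, unrounded counts and overlapping genes summed, the last 2 added after seeing the data.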

Additional observations from a re-analysis of the deposited data

How the results depend on the processing

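The 10 genes gave 139 values under the 14 alternatives, and all 139 kept their direction and an adjusted p under 0.05. LGR5 has no value where at least 10 counts were required in every library, which left 9 genes called lower, 5 of them by 2-fold. The highest adjusted p-values were 0.0463 for CTNNB1, 0.0335 for GLUL and 0.024 for ZNRF3. Their median log2 fold change, −1.29 as reported, was −1.21 with total count scaling, which moved the median of all genes to 0.1, −0.81 with limma on log2(TPM + 1), −1.11 with at least 10 counts in every library and −1.46 with the GC trend removed. Leaving out 1 library at a time gave −1.39 (without shUBXN1 replicate 2) to −1.22 (without shUBXN1 replicate 1). Over all alternatives, 3607 to 5324 of all genes were called higher and 3746 to 5395 lower, and 27 to 38 and 26 to 37 of the other pathway genes. The causes of these shifts were not tested.

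With a replicate block, 10 of the genes were called lower and the median was −1.29. The shared numbers did not pair the libraries (correlation of the deviations of same-numbered libraries 0.0393).

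Of the 43 genes recomputed, 35 kept both their direction and their side of the threshold in every setting that could hold them, and the other named genes were tested in the reported setting alone. Calls lost when 1 library was left out were those of FZD8, HAL and SLC1A2 without shCon replicate 1 (adjusted p = 0.239, 0.109 and 0.261) or shUBXN1 replicate 2 (0.114, 0.0609 and 0.095), FZD9 and TLE4 without shCon replicate 2 (0.0967 and 0.0906), and FZD8, NFATC1 and TLE4 without shUBXN1 replicate 1 (0.052, 0.139 and 0.0761). FZD8 and SLC1A2 also lost theirs with DESeq2 (0.0992 and 0.0536), FZD8 with the GC trend removed (0.119), SLC1A2 with total count scaling (0.0512), and SLC1A2 and NFATC1 with limma on log2(TPM + 1) (0.0754 and 0.0764). SFRP4, which passed in no setting, went from −0.31 (without shUBXN1 replicate 1) to 0.32 as single libraries were left out. LGR4 passed only without shUBXN1 replicate 2 (adjusted p = 0.00859).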
